A study of Mus musculus with 14 samples.

Results

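The genes that encode the proteins of the cytosolic ribosome were followed across sorted dendritic cells (DCs) of mouse lymph nodes. They were taken by symbol, as the rows of the deposited normalized table whose symbol is Rpl or Rps followed by a subunit number or by the a, p0, p1 and p2 endings. The pattern found 77 genes among the 10321 rows of that table, 46 of the large subunit and 31 of the small subunit. In the larger count table, with 23420 rows, 3 more symbols fit the pattern: Rpl3l, Rpl10l and Rpl39l. They were no members, and Rpl10l had only 10 counts in all libraries together.

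Each library held 150 DCs, taken from popliteal lymph nodes of C57BL/6 mice by a sort for CD11c, CD11b and strong MHC-II without XCR1. Biotin-positive (6 libraries) and biotin-negative DCs (6 libraries) were endogenous cells of Cd40G5/G5 recipients, which the sample labels list as genotype G5-Cd40+/+. In these mice a pentaglycine tag on CD40 accepts a biotinylated peptide from sortase carried by a touching T cell, a labelling method known as LIPSTIC. The recipients had been given Cd40G5/G5 DCs loaded with OVA peptide (500000 per footpad). After 18 hours they were given 300000 OT-II T cells (CD4+), which carried CD40lgSrtA/Y and CD4-Cre. The substrate biotin-LPETG (300 nmol per footpad) followed 46 hours after the T cells, and cells were taken at 48 hours. Cd40-null DCs (2 libraries) came from Cd40-/- mice, which were given DCs and OT-II T cells that were both wild type. For them the labels list the same cell numbers, times and substrate dose as for the biotin groups. Host genotype and transferred cells therefore differed together.

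Polyadenylated RNA was read by Smart-seq2, a full-length method for small cell numbers, as paired-end reads of 38 bp. Total counts per library ran from 14518099 to 33260704 in biotin-positive cells, from 16762804 to 28631847 in biotin-negative cells and from 19707746 to 23843843 in Cd40-null cells. Cd40 itself measured 852 to 1309 CPM (counts scaled to 1000000 per library) in biotin-positive, 386 to 598 CPM in biotin-negative and 53.3 to 74.2 CPM in Cd40-null libraries, lowest in the knockout. A list of 14 DC genes summed to 12275 to 13702, 12028 to 15247 and 9758 to 12427 CPM in biotin-positive, biotin-negative and Cd40-null libraries. All 14 were detected in each group. Between the biotin groups 1 was called higher in biotin-positive cells, Fscn1, at a mean of 7172 against 3185 CPM, a large part of these sums. The 7 called lower were Itgax, Itgam, H2-Aa, H2-Ab1, Cd74, Sirpa and Dpp4. Among them H2-Aa had 442 CPM in biotin-positive cells, against 1776 CPM in biotin-negative cells, and Itgax 55.5 against 139 CPM.

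The cytosolic ribosome joins a small subunit, which reads the messenger RNA, to a large subunit, which forms the peptide bond. Each subunit needs its proteins in near-equal numbers. In mammals the messenger RNAs of ribosomal proteins begin with a run of pyrimidines, the 5′ terminal oligopyrimidine (TOP) tract, through which the kinase complex mTORC1 and the RNA-binding protein LARP1 control their translation and stability. Most of these genes also have processed pseudogenes, intronless copies elsewhere in the genome. In the GENCODE M21 annotation of mm10, 59 of the 77 members had at least 1 pseudogene named after them, and 291 such copies were listed, led by Rpl31 with 24. Short reads can be split among such copies, which makes the value of a single member uncertain. Whether this also moved members together was not tested.

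The start regions of 6 members whose values are described below are shown with their pyrimidine runs. A marked run is not always a TOP tract, which lies at the very start of the messenger RNA. The windows, from RefSeq on GRCm38.p6, reach from 45 bases before to 15 bases into the annotated start, and capitals mark the longest run of pyrimidines.
Rpl4 (chr9:64173342-64173401, plus strand): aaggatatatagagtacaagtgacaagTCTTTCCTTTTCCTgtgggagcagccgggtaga
Rpl10 (chrX:74270771-74270830, plus strand): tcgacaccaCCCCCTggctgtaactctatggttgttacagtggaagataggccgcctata
Rps28 (chr17:33824548-33824607, minus strand): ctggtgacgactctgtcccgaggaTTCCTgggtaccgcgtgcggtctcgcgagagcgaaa
Rps18 (chr17:33955651-33955710, minus strand): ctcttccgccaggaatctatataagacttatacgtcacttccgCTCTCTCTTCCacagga
Rps27 (chr3:90213634-90213693, minus strand): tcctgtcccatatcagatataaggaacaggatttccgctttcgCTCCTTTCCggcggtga
Rplp0 (chr5:115559422-115559481, plus strand): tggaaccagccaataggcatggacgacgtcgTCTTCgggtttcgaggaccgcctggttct

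The longest run was 14 bases in Rpl4 and began 18 bases before the annotated start. In Rps18 it was 11 bases and in Rps27 9 bases, both beginning 2 bases before the start. Rpl10, Rps28 and Rplp0 had runs of 6, 5 and 5 bases, all starting over 10 bases upstream and ending before the annotated start.

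RefSeq start regions were on hand for 57 of the 77 members and for 10004 of the genes tested. Within 25 bases either side of the start, 34 member windows (59.6%) held 7 or more pyrimidines in a row on the coding strand, against 27.1% of all windows. On the opposite strand the shares were 15.8% of member windows and 28.8% of all windows. The letters CTTTCC stood on the coding strand in 15.8% of member windows and 2.27% of all windows, and CTCTTT in 8 member windows (14.04%) and 1.51%; these hexamers can overlap the pyrimidine runs. CCGGAAG, the core of ETS factor motifs, lay on either strand somewhere in the 300 bases of 40.4% of member and 17.4% of all windows. TATAAA was on the coding strand of 8.77% of member and 4.38% of all windows. A pyrimidine run was present in 16 of 29 members called between the biotin groups below, against 18 of 28 members not called. CTTTCC on the coding strand was present in 1 called and 8 not called members, and CTCTTT in 4 and 4. CCGGAAG was present in 11 and 12, and TATAAA in 2 and 3. These differences were not tested.

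Levels per kilobase of coding sequence spread widely between members. The highest means over the 14 libraries were 4554 CPM per kb for Rpl41, 1997 for Rps19 and 1446 for Rpsa. Rpl41 encodes the smallest ribosomal protein, in 75 coding bases, and untranslated ends are not part of that length. Rps19 and Rpsa encode proteins of the small subunit. By group, Rpl41 measured 3724 ± 666, 5230 ± 1949 and 5020 ± 595 CPM per kb in biotin-positive, biotin-negative and Cd40-null cells (SD, n = 6, 6 and 2). Rps19 measured 1945 ± 249, 2022 ± 586 and 2080 ± 89.2 CPM per kb in the same groups, and Rpsa 1189 ± 125, 1608 ± 300 and 1732 ± 100.1. Within these SDs the order Rpl41, Rps19, Rpsa was clear in biotin-positive cells, whereas Rps19 and Rpsa overlapped in biotin-negative cells.

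The lowest were 3 large-subunit genes, Rpl26 with 72.7, Rpl30 with 43.9 and Rpl34 with 16.4 CPM per kb. The median over all members was 560 CPM per kb, 527 for the large and 580 for the small subunit. The value of Rpl34 has to be read with its copies. The count table holds 6 rows named as pseudogenes of 5 members, and Rpl34-ps1 among them measured 142 ± 23.6 CPM in biotin-positive cells, against 193 ± 51.5 CPM in biotin-negative cells, when Rpl34 itself measured 4.59 CPM in the biotin-positive group, against 6.69 CPM in the biotin-negative group. Of the level of Rpl34 and this copy together, 96.7% stood on the copy. For Rps15a the share on 2 copies was 21.3%, and for Rpl31, Rplp2 and Rps19 it was 6.34%, 3.82% and 0.152%. Most of the annotated copies had no row of their own in the table. The genes lay on 19 chromosomes, led by chromosome 7 with 14 members.

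Biotin-positive DCs had lower levels of most ribosomal protein messenger RNAs than biotin-negative DCs. Summed over the 46 large-subunit genes, the level was 11503 ± 1479 CPM in biotin-positive cells, against 15607 ± 2997 CPM in biotin-negative cells (SD, n = 6 each), a ratio of 0.737. Over the 31 small-subunit genes it was 8237 ± 1126 CPM in biotin-positive cells, against 10995 ± 2399 CPM in biotin-negative cells, a ratio of 0.749. All members together took 1.94% ± 0.23 of the counts of biotin-positive libraries, against 2.67% ± 0.47 for biotin-negative ones. In such pools, fewer cells of a type and less RNA per cell cannot be told apart.

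By library, the total over all members was 16138 at the lowest, 19258 at the median and 23654 CPM at the highest in biotin-positive cells. In biotin-negative cells it was 22068, 25079 and 35850 CPM. Biotin-positive replicate 5, the highest of its group, lay above biotin-negative replicates 4, 5 and 6, so the groups overlapped. Biotin-positive replicate 6 and biotin-negative replicate 2 were the ends of the whole range. The Cd40-null libraries, at 26072 and 28536 CPM, lay above every biotin-positive library and within the biotin-negative range.

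**Figure D1:**
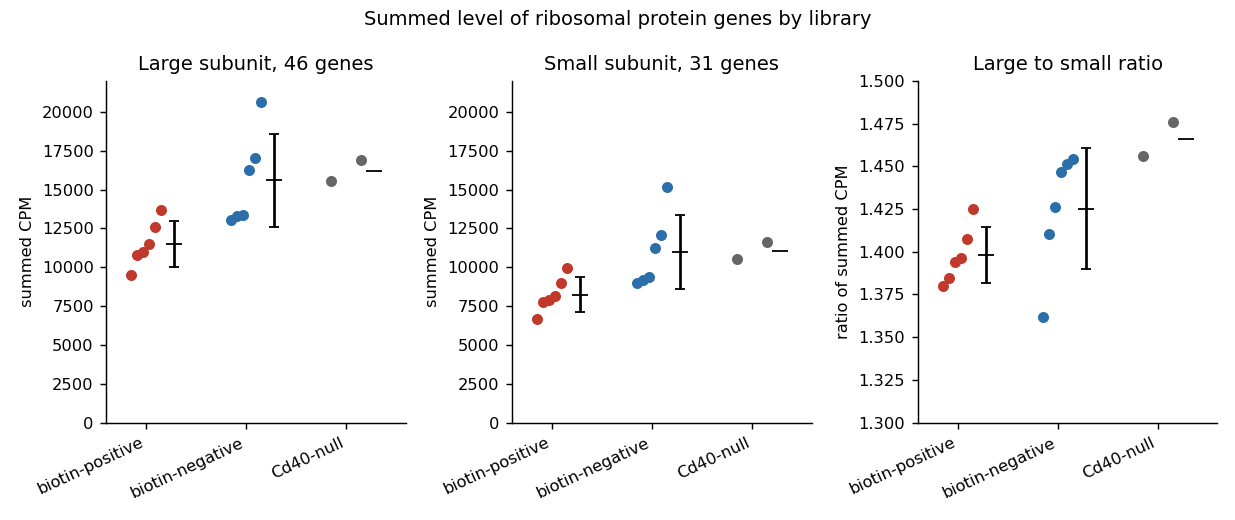
Summed CPM of the large- and small-subunit genes and the ratio of both sums, 1 point per library, with the mean and SD beside each group (mean only for the 2 Cd40-null libraries). The biotin-positive points sit lowest in both sums, with means of 11503 and 8237 CPM, and 1 of them (large subunit) or 2 (small subunit) reach into the biotin-negative range. The axis of the ratio starts at 1.3.

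Gene by gene, 38 members were lower in biotin-positive cells at an adjusted p of at most 0.05 and 0 were higher (edgeR quasi-likelihood test over 14217 genes, Benjamini-Hochberg). Of all genes tested, 4.05% were called lower and 3.70% higher. The members called were 20 of 46 for the large and 18 of 31 for the small subunit. Without adjustment, 71 members were lower at p under 0.05 and 0 were higher, against 11.8% of all genes lower. The fold change was negative for 76 of 77 members. The median log2 fold change was -0.49 over all members, -0.48 for the large and -0.51 for the small subunit, against -0.03 over all genes tested. Whether each library had its own mouse is not in the labels, and the p-values cover the spread of these libraries alone, which may be technical.

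The count of calls leaned on single libraries. It was 20, 14, 18 and 12 without biotin-positive replicate 1, 3, 4 or 6, and 15, 17 and 18 without biotin-negative replicate 1, 2 or 3. With both extreme libraries left out, biotin-positive replicate 6 and biotin-negative replicate 2, it was 5, with a median of -0.32 and 75 of 77 fold changes negative. In all these fits no member was called higher. On all libraries DESeq2 called 62 members lower, and limma on the deposited normalized values called 14 with a pseudocount of 1. The share of all genes called in these fits is not given here. The counts therefore show only how far the members' calls moved.

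The direction was the same under other scalings of the libraries. With 4 other scalings (relative log, upper quartile, total counts, and factors computed without these genes) 39 to 56 members were called lower, 0 higher. The share of all genes called under these scalings is not given here, and the share above belongs to the main fit. The number of genes with a count also moved with the groups: it was 13296 ± 155 in biotin-positive, 14976 ± 621 in biotin-negative and 13355 ± 342 in Cd40-null libraries. With that number as a covariate 0 members were called, while the median log2 fold change was -0.70; its part in the result was not tested further.

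**Figure D2:**
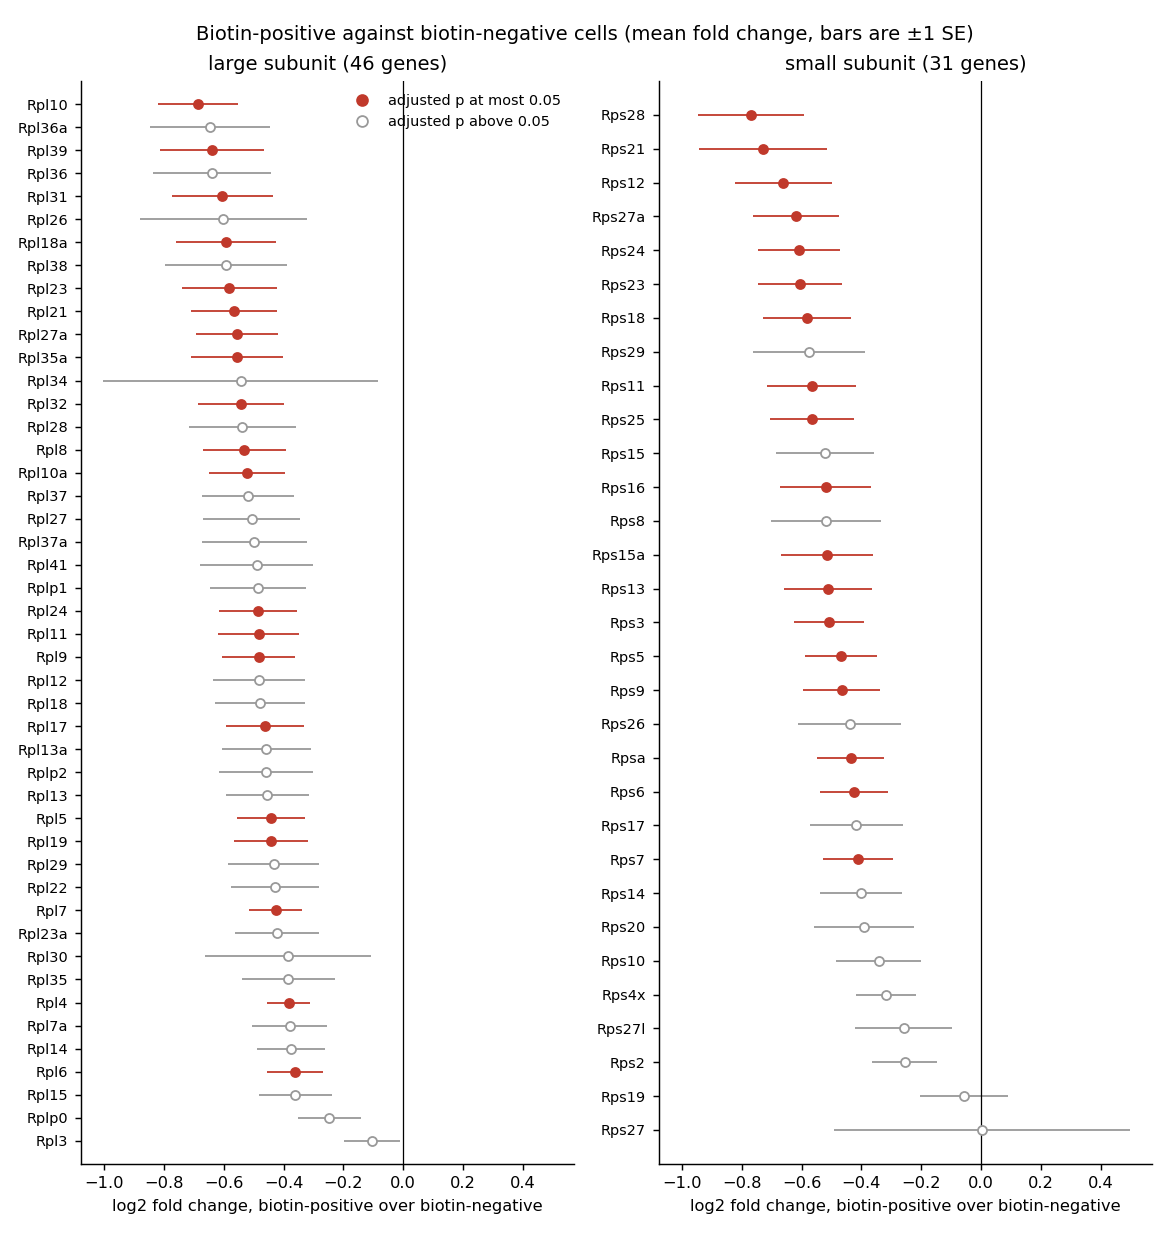
Log2 fold change, biotin-positive over biotin-negative, of each of the 77 genes with ±1 SE, large subunit left and small subunit right; filled points have an adjusted p of at most 0.05. Nearly all points lie left of 0, from -0.77 for Rps28 to 0.00 for Rps27.

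Among large-subunit proteins, Rpl4 lines the tunnel through which the new chain leaves the ribosome. Its gene (chromosome 9) measured 712, 812 and 864 CPM at the lowest, median and highest biotin-positive library, against 938, 1059 and 1130 CPM in biotin-negative libraries. No biotin-positive library reached the lowest biotin-negative one. The log2 fold change was -0.38 (SE 0.07, adjusted p = 0.00298), the smallest p of any member.

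Rpl10 is added late in the making of the large subunit and sits close to the site of peptide bond formation. It measured 348, 461 and 576 CPM in biotin-positive libraries, against 596, 697 and 1011 CPM in biotin-negative libraries, again with no overlap. Its log2 fold change of -0.69 (SE 0.13, adjusted p = 0.00353) was the most negative of the large subunit.

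Rpl7 had 386, 437 and 485 CPM in biotin-positive libraries, against 529, 564 and 692 CPM in biotin-negative libraries, with a log2 fold change of -0.43 (SE 0.09, adjusted p = 0.00566). The groups were separate here too. Rpl10a, part of the stalk that moves with the leaving transfer RNA, had 95.7, 123 and 152 CPM in biotin-positive libraries, against 147, 179 and 223 CPM in biotin-negative libraries (log2 fold change -0.52, adjusted p = 0.0174). The 2 highest biotin-positive libraries passed the lowest biotin-negative one. Rpl27a, with a log2 fold change of -0.56 and an adjusted p of 0.0186, did not overlap.

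In the small subunit, Rps28 had the most negative fold change of all members. It measured 49.9, 55.1 and 75.7 CPM in biotin-positive libraries, against 73.4, 97.6 and 153 CPM in biotin-negative libraries, so the highest biotin-positive library passed the lowest biotin-negative one. The log2 fold change was -0.77 (SE 0.18, adjusted p = 0.012).

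Rps3 lies at the entry of the messenger RNA channel. It had 293, 342 and 380 CPM in biotin-positive libraries, against 409, 441 and 676 CPM in biotin-negative libraries, with a log2 fold change of -0.51 (SE 0.12, adjusted p = 0.0122). The groups did not overlap. Rps24 was also separate, at 133, 176 and 211 CPM in biotin-positive against 224, 255 and 352 CPM in biotin-negative libraries (log2 fold change -0.61, adjusted p = 0.00986).

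Rps23 sits at the decoding centre, where codon and anticodon meet. It had 223, 269 and 381 CPM in biotin-positive libraries, against 347, 413 and 572 CPM in biotin-negative libraries (log2 fold change -0.61, adjusted p = 0.0123). Rps27a is made as a fusion with ubiquitin, which is then cut off. It had 204, 247 and 362 CPM in biotin-positive libraries, against 335, 385 and 540 CPM in biotin-negative libraries (log2 fold change -0.62, adjusted p = 0.0126). In both genes the highest biotin-positive library overlapped the biotin-negative range. Rps18, at the head of the small subunit and shown above for its long pyrimidine run, was named for that and not by rule. Its log2 fold change was -0.58 (adjusted p = 0.021).

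**Figure D3:**
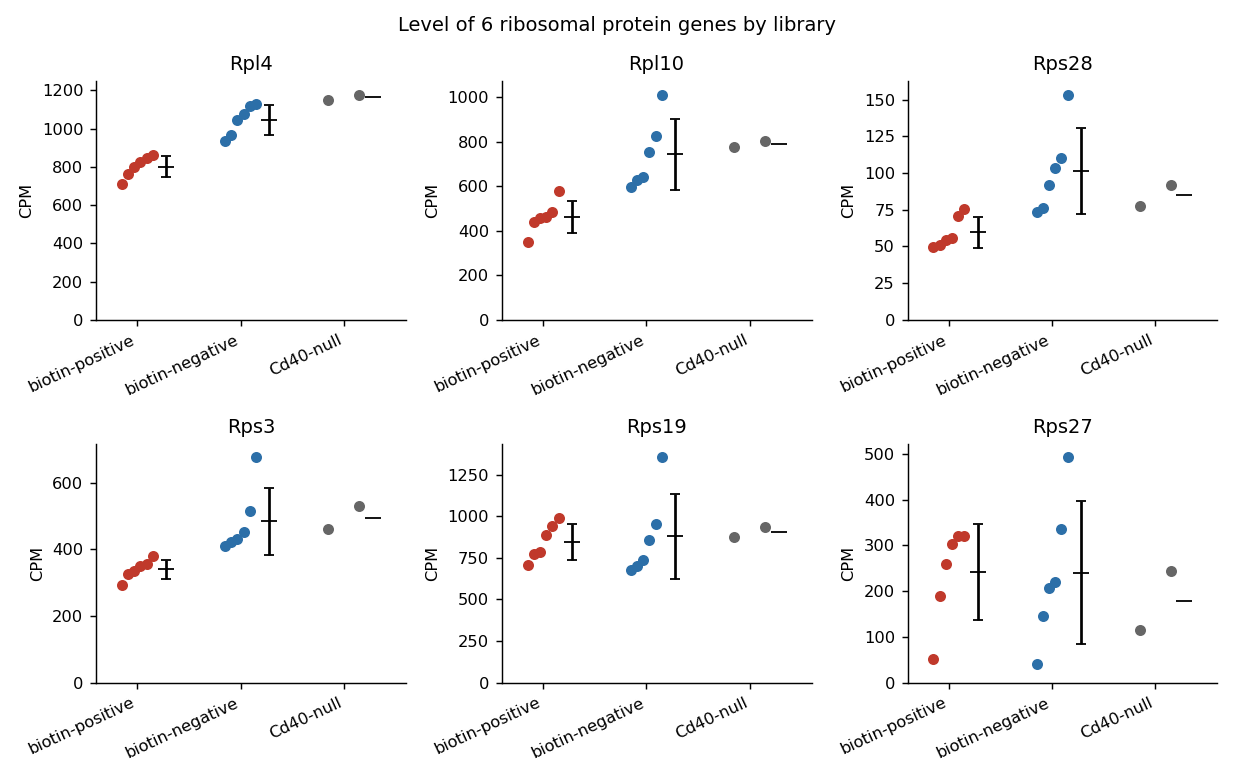
CPM of 6 genes by library, points sorted by level within a group, with the mean and SD beside each group (mean only for Cd40-null). Rpl4, Rpl10 and Rps3 show biotin-positive points wholly below biotin-negative points, Rps28 a slight overlap, and Rps19 and Rps27 groups that lie over each other.

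In 9 members every biotin-positive library lay below every biotin-negative library, against 2.41% of all genes tested. They were Rpl4, Rpl7, Rpl10, Rpl24 and Rpl27a of the large subunit and Rps3, Rps12, Rps24 and Rps25 of the small subunit. Rpl24, Rps12 and Rps25 are named for this separation, after their values were seen. Calls held in all 14 fits that each left out 1 library for 12 members: Rpl4, Rpl7, Rpl10, Rpl10a, Rpl27a, Rps3, Rps12, Rps23, Rps24, Rps25, Rps27a and Rps28. The same count was not made over all genes called, so it has no background share.

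Several functional units of the ribosome were looked at by their role, and chosen with their values already known. The stalk proteins Rplp0, Rplp1 and Rplp2, which recruit elongation factors, had log2 fold changes of -0.25, -0.49 and -0.46, none of them past the threshold (adjusted p = 0.181, 0.0758 and 0.09). Rpl5 and Rpl11, which together carry the small ribosomal RNA of the large subunit and can bind the p53 regulator MDM2, were both lower in biotin-positive cells (log2 fold changes -0.44 and -0.48, adjusted p = 0.0244 and 0.0361). Rps6, the substrate of the S6 kinases below mTORC1, measured 535 ± 73.6 CPM in biotin-positive cells, against 718 ± 117 CPM in biotin-negative cells (log2 fold change -0.42, adjusted p = 0.0276).

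The members that differed least were Rps27, Rps19 and Rpl3. Rps19, whose human counterpart is mutated in Diamond-Blackfan anaemia, had 708, 834 and 987 CPM in biotin-positive libraries and 677, 797 and 1354 CPM in biotin-negative libraries (log2 fold change -0.06, SE 0.15, adjusted p = 0.897). These ranges lay over each other. Rpl3, an early-assembling core protein of the large subunit, had 597 ± 65.6 CPM in biotin-positive cells, against 642 ± 74.2 CPM in biotin-negative cells (log2 fold change -0.11, SE 0.09, adjusted p = 0.609). Rpl3 also varied least of all members over the 14 libraries, with an SD of 0.19 on the log2 CPM scale. Rps19 has 14 annotated pseudogenes.

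Rps27, a zinc-binding protein of the small subunit, varied most, with an SD of 1.03 on the log2 CPM scale; Rpl34 (0.70) and Rpl26 (0.59) came next. It had 190, 320, 260, 303, 322 and 51.9 CPM in biotin-positive replicates 1 to 6. In biotin-negative replicates 1 to 6 it had 337, 493, 207, 146, 220 and 40.1 CPM, and 243 and 115 CPM in the Cd40-null replicates. So 1 library in each biotin group, replicate 6 in both, was far below the others, and no group stood apart. The log2 fold change was 0.00 with an SE of 0.49 (adjusted p = 0.999), and its sign turned with the scaling of the libraries.

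Its paralog Rps27l, which is known as a p53 target, was steadier. It had 63.0 CPM at the lowest, 68.7 at the median and 108 at the highest biotin-positive library, and 77.6, 82.3 and 118 CPM in biotin-negative libraries (log2 fold change -0.26, adjusted p = 0.412). In both genes biotin-positive replicate 5 and biotin-negative replicate 2 were the highest of their groups, and biotin-negative replicate 6 the lowest of its group, but Rps27l spanned a far smaller range. Rpl26 had only 12.9 to 43.5 CPM in biotin-positive and 28.2 to 49.2 CPM in biotin-negative libraries, and Rpl34 only 1.98 to 6.43 CPM in biotin-positive libraries, against 2.86 to 14.6 CPM in biotin-negative ones. Their log2 fold changes were -0.60 and -0.54, against a members' median of -0.49, with large errors (SE 0.28 and 0.46) and adjusted p of 0.225 and 0.584. With the counts of its copy added, Rpl34 had -0.45 (adjusted p = 0.106), and this sum over gene and copies left the number of members called at 38. Rpl30 likewise had -0.38 (SE 0.28, adjusted p = 0.5).

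Apart from such genes, members moved together from library to library. The median Pearson correlation of log2 CPM between pairs of members over the 14 libraries was 0.905, with a range from -0.06 to 0.992. This describes libraries that differ in their groups and share a scaling, and no test was made of it. The correlation of each member with the mean of the others was lowest for Rpl26 (0.33), Rps27 (0.42), Rpl34 (0.63), Rps27l (0.70), Rps19 and Rpl3 (both 0.73).

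**Figure D4:**
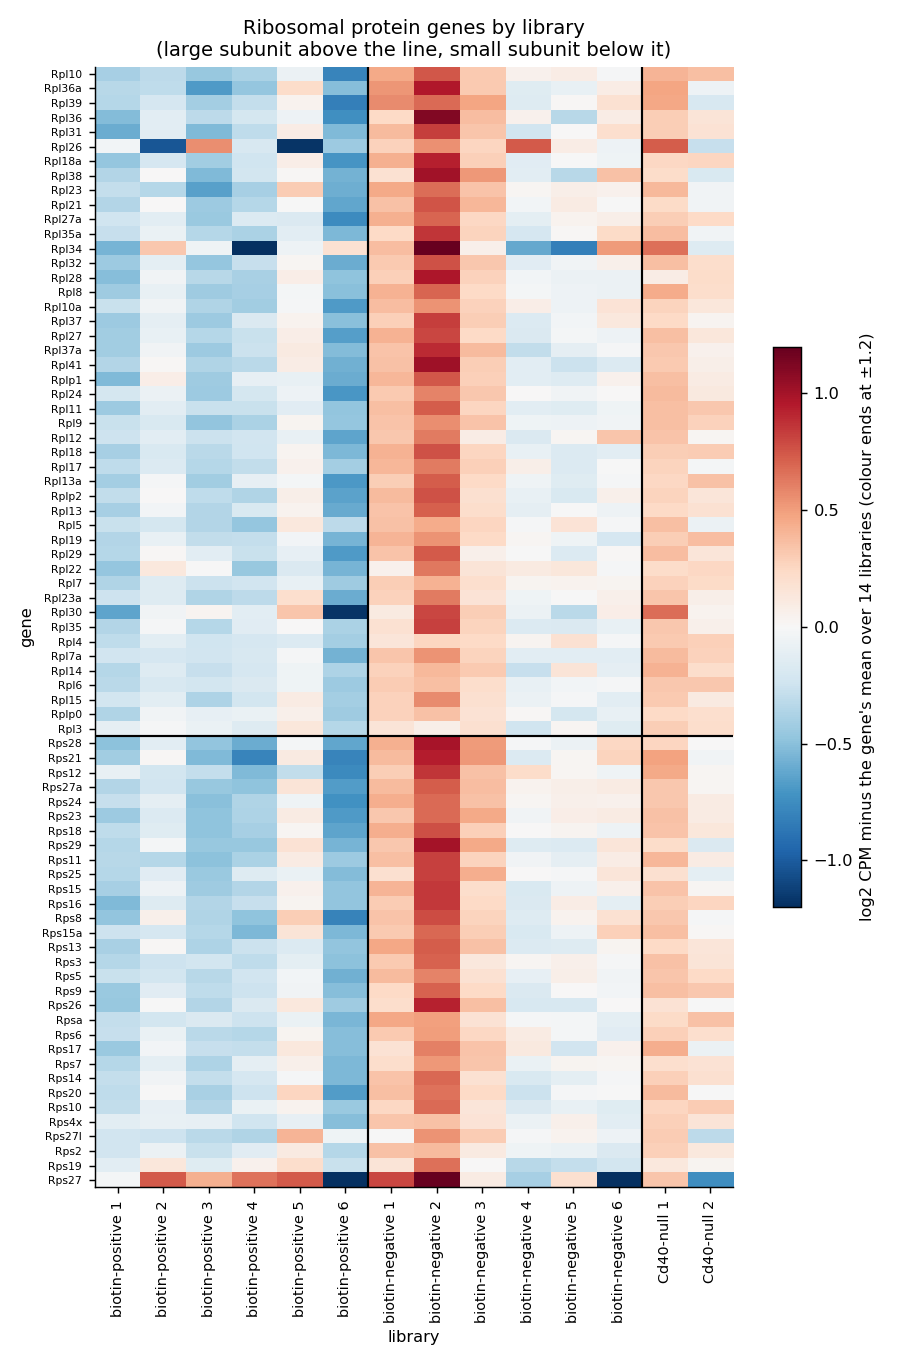
Log2 CPM of each gene minus its mean over the 14 libraries, genes in rows (large subunit above the line, ordered by fold change) and libraries in columns. Most rows share 1 pattern, lowest in biotin-positive replicate 6 and highest in biotin-negative replicate 2; Rps27, Rpl26 and Rpl34 depart from it.

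The size of the difference went with the length of the coding sequence. Over the 77 members, Spearman's rank correlation between coding length and log2 fold change was 0.43, so that shorter genes had more negative values; without Rps27 it was 0.47 over 76. The 39 members of up to 453 coding bases had a median of -0.52, and the 38 longer ones -0.46. The rank correlation between coding length and the SD over libraries was -0.67, so shorter members also varied more. Members are not independent of each other, and these values are a description.

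The ratio of the summed large- to small-subunit levels was close to constant. It was 1.40 ± 0.016 in biotin-positive, 1.43 ± 0.035 in biotin-negative (SD, n = 6 each) and 1.47 ± 0.014 in Cd40-null cells (n = 2). In biotin-positive libraries it ran from 1.38 to 1.42, and in biotin-negative libraries from 1.36 to 1.45. Biotin-negative replicate 2, the library with the highest total, had the lowest ratio of all 14. Both Cd40-null libraries, at 1.46 and 1.48, were above all others. The biotin groups overlapped in the ratio, while their summed levels had ratios of means of 0.737 and 0.749.

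Against the Cd40-null cells, biotin-positive cells again had lower levels of ribosomal protein genes. The ratio of mean summed levels was 0.709 for the large and 0.744 for the small subunit. Fold changes were negative for 76 of 77 members, with a median log2 fold change of -0.48, -0.49 for the large and -0.47 for the small subunit, against 0.04 over all genes tested. Of the members, 4 were called lower and 0 higher, against 1.05% of all genes called lower and 1.22% higher. In 49 members both Cd40-null libraries lay above all biotin-positive libraries, against 8.07% of all genes. Without adjustment, 51 members were lower at p under 0.05, against 6.65% of all genes. This comparison and the one above share the biotin-positive libraries.

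The 4 called members were all of the large subunit. Rpl4 had 712 to 864 CPM in biotin-positive and 1150 and 1178 CPM in Cd40-null libraries (log2 fold change -0.54, SE 0.10, adjusted p = 0.00695). Rpl10 had 348 to 576 CPM in biotin-positive and 774 and 803 CPM in Cd40-null libraries (-0.77, SE 0.18, adjusted p = 0.0315). Rpl6 had 398 to 522 CPM in biotin-positive and 674 and 676 CPM in Cd40-null libraries (-0.55, SE 0.13, adjusted p = 0.0328). In all of these every biotin-positive library lay below both Cd40-null libraries.

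Rpl7 had 386 to 485 CPM in biotin-positive and 606 and 625 CPM in Cd40-null libraries (-0.50, SE 0.12, adjusted p = 0.0384). Rpl9 (-0.60, adjusted p = 0.0716) and Rpsa (-0.54, adjusted p = 0.0771) were next and did not pass. Rps9, the most negative small-subunit member here, had -0.62 (adjusted p = 0.082), and Rpl38 the least negative large-subunit value, -0.29 (adjusted p = 0.729). Rps27 was the 1 member with a positive value, 0.43 with an SE of 0.72 (adjusted p = 0.88). Without either Cd40-null library 0 members were called, and without biotin-positive replicate 1, 2, 3, 4 or 6 the count was 2, 2, 1, 2 and 2. Without biotin-negative replicate 2, which enters only the shared spread, it was 9. As above, the share of all genes called in these fits is not given.

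Between biotin-negative and Cd40-null cells no member passed the test. This comparison shares libraries with both others. The ratio of mean summed levels was 0.962 for the large and 0.993 for the small subunit. Of 77 members 0 were called, against 0.0422% of all genes called lower and 0.274% higher. By edgeR 0 members were lower at an unadjusted p under 0.05, against 3.47% of all genes, and 0 were higher. DESeq2 and limma called 0 members as well. Fold changes were negative for 37 members and positive for 40, with a median log2 fold change of 0.00. The median was -0.12 without biotin-negative replicate 2, and 0.11 and -0.11 without Cd40-null replicate 1 or 2.

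The smallest p belonged to Rpl3, at 642 ± 74.2 CPM in biotin-negative and 756 CPM in Cd40-null cells (log2 fold change -0.24, SE 0.13, adjusted p = 0.592). Rpl4 followed with 1045 ± 79.0 CPM in biotin-negative and 1164 CPM in Cd40-null cells (-0.16, adjusted p = 0.646). These 2 were also the members whose biotin-negative libraries all lay below both Cd40-null libraries, against 4.47% of all genes. Rpl6 (-0.19), Rps25 (0.25), Rpl14 (-0.17) and Rps29 (0.29) came next with adjusted p from 0.67 to 0.794. At the ends, Rpl38 had 0.30, Rps27 0.43 and Rps9 -0.15, none past the threshold.

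**Figure D5:**
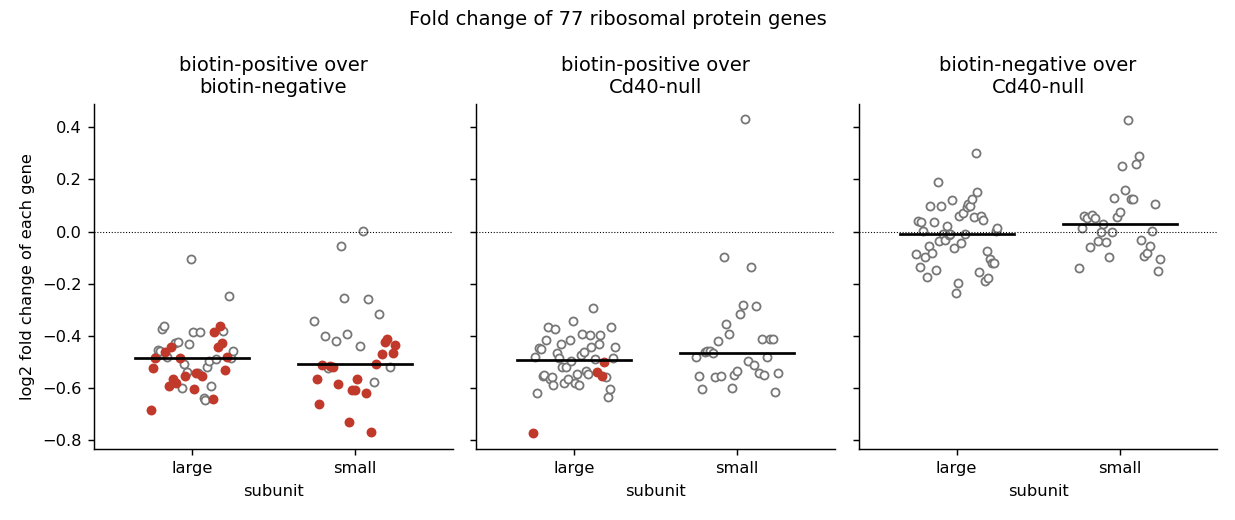
Log2 fold change of each gene in the 3 comparisons, by subunit; filled points have an adjusted p of at most 0.05 and lines mark medians. Medians lie near -0.5 in both comparisons of biotin-positive cells and near 0 for biotin-negative over Cd40-null; the comparisons share libraries.

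Proteins of the ribosome that the symbol pattern passes over were read in the same fit. Gnb2l1, the RACK1 scaffold on the small subunit, was lower, at 187 ± 18.2 CPM in biotin-positive cells, against 255 ± 39.1 CPM in biotin-negative cells (log2 fold change -0.45, adjusted p = 0.0154). Fau (-0.36, adjusted p = 0.207), Rpl36al (-0.50, adjusted p = 0.0732) and Rps3a1 (-0.28, adjusted p = 0.105; chosen after its values were seen) did not pass.

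The paralogs gave little in addition. Rpl22l1 had a log2 fold change of -0.24 (adjusted p = 0.669) beside -0.43 (adjusted p = 0.0902) for Rpl22. Rpl7l1, a nucleolar relative of Rpl7, had 0.10 (adjusted p = 0.635), where Rpl7 was lower. Rpl36a had -0.64 (adjusted p = 0.0596), Rpl39 had -0.64 (adjusted p = 0.0315) and Rps4x had -0.32 (adjusted p = 0.0666). Rpl39l was tested at -0.08 with an SE of 1.47 (adjusted p = 0.987) and Rpl3l at 0.01 with an SE of 1.28 (adjusted p = 0.999). These had at most 104 and 17 counts in any library.

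Other genes of protein synthesis were read from lists chosen by function. Of 14 elongation factors and related genes 3 were lower in biotin-positive cells and 0 higher: Eef1b2 (log2 fold change -0.62, adjusted p = 0.00615), Eef1a1 (-0.29, adjusted p = 0.0168) and Tpt1 (-0.41, adjusted p = 0.0254). These 3 also have TOP messenger RNAs, but the lists were not divided by this trait, and its part was not tested. Of 41 initiation factors 3 were lower and 0 higher, namely Eif4b (-0.42, adjusted p = 0.0153), Eif4a2 (-0.40, adjusted p = 0.0252) and Eif4g3 (-1.46, adjusted p = 0.0253). The elongation list had 21.4% and the initiation list 7.32% called lower, against 4.05% of all genes tested. List medians between the biotin groups were -0.16 and -0.12, against -0.03 for all genes and -0.49 for the members. For biotin-positive over Cd40-null cells 3 of 14 and 3 of 41 were called lower and 0 higher, against 1.05% of all genes called lower. Medians were -0.41 (12 of 14 negative) and -0.28 (35 of 41 negative), against 0.04 for all genes and -0.48 for the members.

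Of 92 tested ribosome assembly genes, 2 were higher and 1 lower in biotin-positive cells, with a median of -0.09. Both counts are shares below those of all genes tested, of which 3.70% were called higher and 4.05% lower, so that they are no result about the list. By name, Ubtf, a transcription factor of RNA polymerase I, measured 173 ± 39.9 CPM in biotin-positive cells, against 83.8 ± 19.0 CPM in biotin-negative cells (log2 fold change 1.04, adjusted p = 0.000682). The helicase Ddx49 was higher too (0.92, adjusted p = 0.000915). Npm1, a nucleolar chaperone, was lower (-0.53, adjusted p = 0.0117).

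Among 40 genes of mTORC1 and TOP control, 2 were higher and 1 lower, which is near the shares of all genes; the 3 are given as single genes, not as a result about the list. Sesn2, an mTORC1 inhibitor that senses leucine, measured 87.9 ± 12.5 CPM in biotin-positive cells, against 36.4 ± 10.3 CPM in biotin-negative cells (log2 fold change 1.27, adjusted p = 0.000236). Tsc2, whose product holds mTORC1 down, was higher (0.59, adjusted p = 0.0276). Eif4ebp1, a translation repressor that mTORC1 switches off, was lower, at 2.39 ± 0.94 CPM in biotin-positive cells, against 7.05 ± 1.66 CPM in biotin-negative cells (-1.55, adjusted p = 0.0262). Of 30 chaperones and quality control genes at the ribosome, Hspa8 (-0.37, adjusted p = 0.00113) and Gnb2l1 were lower and 0 higher. That is 6.67% called lower, against 4.05% of all genes, and the list median was -0.04, against -0.03. These 2 are also given as single genes, not as a result about the list.

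Of 76 protein genes of the mitochondrial ribosome, which is encoded apart from the cytosolic one, 0 were called between the biotin groups, 1 was higher and 5 were lower at an unadjusted p under 0.05, and the median log2 fold change was -0.04. Of all genes tested 4.05% were called lower and 3.70% higher, and 11.8% were lower at an unadjusted p under 0.05. For the mitochondrial list DESeq2 called 1 higher and 2 lower, and limma voom called 0. The difference between the lists was not tested.

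The summed levels of marker lists for other cells were as follows, in biotin-positive, biotin-negative and Cd40-null libraries. A list of 13 monocyte and macrophage genes in the table summed to 89.9 to 234 CPM in biotin-positive, 219 to 1240 CPM in biotin-negative and 254 to 451 CPM in Cd40-null libraries; 7 of its 13 tested genes were called lower in biotin-positive cells. The 2 Langerhans cell markers, Epcam and Cd207, summed to 212 to 293, 30.6 to 103 and 90.4 to 100.6 CPM in the same order. Plasmacytoid DC markers (5 genes) summed to 80.6 to 198, 230 to 532 and 324 to 378 CPM. Of these only Spib was called between the biotin groups, at 74.4 CPM in biotin-positive cells, against 290 CPM in biotin-negative cells, while Bst2 (log2 fold change 0.12) and Siglech (0.40) had positive values and Tcf4 and Ccr9 did not pass. T cell markers (12 genes) summed to 24.2 to 62.8, 20.7 to 98.5 and 33.2 to 149 CPM. Of these 12, 11 had positive fold changes in biotin-positive over biotin-negative cells (median log2 fold change 1.49, 3 at an unadjusted p under 0.05, 0 called) and 11 had negative ones in biotin-negative over Cd40-null cells (median -2.23, 0 called). B cell markers summed to at most 71.1 CPM. NK cell markers stayed at or below 4.24 CPM. Genes of the XCR1-bearing DCs that the sort leaves out summed to 5.02 to 14.96, 14.1 to 40.7 and 15.2 to 18.8 CPM, with Clec9a at 0 in biotin-positive and Cd40-null libraries. The precursor of ribosomal RNA, Rn45s, took 17.7%, 20.6% and 19.5% of counts on average. The part of these in the levels of ribosomal protein genes was not tested.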

How the data were processed

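RNA of 14 pools of sorted cells was sequenced after Smart-seq2. The authors deposited a table of expected counts per gene, whole numbers throughout; the submitters' processing notes name Bowtie2 2.1.0, RSEM 1.2.8 and mm10 without their roles. They also deposited a filtered table of normalized signal, in which each library's counts are divided by 1 factor per library, and the notes also name DESeq2 1.16.0; its filter is not given in the sources used here. That table defined the members by symbol. Counts were tested in R 4.3.3 with edgeR 4.0.16: genes kept by filterByExpr (minimum count 10; 14217 genes), TMM factors, a robust quasi-likelihood fit over all 14 libraries, a test for each pair of groups and Benjamini-Hochberg adjustment (threshold 0.05, prior count 2). SE is the log2 fold change over the root of F. CPM uses TMM-scaled library sizes. Comparisons of 2 groups share libraries with each other. Limma 3.58.1 and DESeq2 1.42.0 gave alternatives; the fit was tested on simulated data. Replicate numbers were not used to pair samples in the main fit. Deviations of same-numbered biotin-positive and biotin-negative libraries correlated at -0.06 to 0.03 over 9382 genes. Such low correlations cannot show that same-numbered libraries were unrelated.

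Coding lengths came from the principal transcript in GENCODE M21 and start regions from RefSeq (GRCm38.p6). Figures used Python 3.11.15 and matplotlib 3.10.9. Total counts ran from 14518099 to 33260704. Reads carried no molecular identifiers, so depth limits counting error only. Groups came from the sample labels. Named by rule were, in each comparison, up to 10 called members each way by smallest p (the 6 smallest where fewer than 6 passed), the extremes of fold change per subunit, of level per kilobase (3 highest, 3 lowest) and of spread (3), paralogs, and up to 4 genes of each list; genes named by role are marked. One gene outside the symbol pattern, and the subunit ratio with it added, are not reported here. Members and lists were chosen with earlier results of these data known. Other settings, and leaving out each library, are in the closing section.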

Additional observations from a re-analysis of the deposited data

Results flagged for a closer look

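In groups of 6 libraries, 70 group tests covered members named by rule and the summed levels, their ratio and their share of counts. Members named for other reasons were not tested in this way. In 4 of the 70 tests, 1 library was set apart from the others by a gap over Dixon's critical share of the range. By chance this is met in about 1 in 20. All 4 were the highest library of their group. In biotin-positive replicate 5, Rpl36a measured 80.6 CPM, against 43.1 to 55.7 CPM in the other biotin-positive libraries, and Rps27l measured 107.8 CPM, against 63.0 to 78.2 CPM. That library also had the highest summed level of the members in its group, 23654 CPM. In biotin-negative replicate 2, Rpl22 measured 116.5 CPM, against 74.3 to 83.5 CPM in the other biotin-negative libraries, and Rpl41 measured 664 CPM, against 274 to 418 CPM. That library had the highest summed level of all 14 libraries, 35850 CPM.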

How the results depend on the processing

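Between the biotin groups 0 members were called higher under every alternative run, and 75 to 77 fold changes were negative. The count called lower, 38 as reported, was 62 by DESeq2, 14 and 15 by limma on the normalized table with pseudocounts of 1 and 10, and 0 with the number of genes with a count as covariate. It was 12 to 52 with 1 library left out (12 without biotin-positive replicate 6, 52 without biotin-negative replicate 4) and 5 without both extreme libraries, a choice made after seeing the data. For biotin-positive against Cd40-null cells, 4 as reported, it was 12 by total counts alone, 15 by DESeq2, 16 by limma voom, 0 and 0 by limma on the normalized table, 11 with only those groups, and 0 to 9 with 1 library left out. Without a Cd40-null library that group has 1 library, assumed to vary like the others. For biotin-negative against Cd40-null cells it was 0 throughout. Shares of all genes called under these settings are not given here.

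With the replicate number as a block (replicate block), 27 members were called between the biotin groups and 0 between biotin-positive and Cd40-null cells. Whether the numbers pair the samples is not known. Adding the rows of named pseudogenes to their genes, chosen after seeing the data, left 38, 4 and 0.

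With Rn45s removed, summed levels were 14224, 19326 and 20129 CPM for the large and 10186, 13612 and 13733 CPM for the small subunit in biotin-positive, biotin-negative and Cd40-null cells, by construction, since the total shrinks. The ratio of subunits in the same order was 1.44, 1.49 and 1.54 without the highest member of each subunit and 0.838, 0.850 and 0.881 from geometric means. With 1 library of a group left out it was 1.39 to 1.40, 1.42 to 1.44 and 1.46 to 1.48. Large-subunit sums were then 11061 to 11907, 14594 to 16115 and 15543 to 16919 CPM, and small-subunit sums 7897 to 8554, 10158 to 11394 and 10530 to 11617 CPM.

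Reversals of sign touched Rps27 and Rps9. Rps27 between the biotin groups, 0.00 as reported, was -0.00809 with upper-quartile factors, -0.0184 by total counts, -0.00183 with TMM factors free of the members, -0.00998 without a filter, -0.56 with the covariate and -0.22 to 0.55 with libraries left out. Against Cd40-null cells it was -0.0133 without Cd40-null replicate 2 and 1.07 without replicate 1 for biotin-positive cells, and -0.0181 and 1.07 for biotin-negative cells. Rps9, biotin-negative over Cd40-null, was 0.15 with the covariate. The cause of each was not tested. Rpl30 was measured at a low level, with group means under 20 CPM.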
